A study of Mus musculus with 12 samples.

Results

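Hunk, Tmem254a, Plac9a, Rpl31 and Timmdc1 are 5 of the 17305 named mouse genes on the array, described here across 6 direct comparisons of kidney RNA. They were chosen from these data, for large differences between Bdkrb2 null and wild-type (WT) kidneys that vary from one replicate number to another. The null over WT ratios of the members, and the way they differ between replicate numbers, are therefore given as a description, with no test. The 5 genes were measured by 6 probes, 2 of them for Rpl31, out of 41174 probes on the array. In both genotypes all 6 probes exceeded background on every one of the 12 arrays, none was saturated, and all 6 were among the 22976 probes that passed the filter on dim signal.

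The study compared embryonic kidneys of Bdkrb2 null and Bdkrb2 WT mice, where Bdkrb2 encodes the bradykinin B2 receptor. Kidneys of both genotypes came from embryonic day 14.5, on a C57BL/6 genetic background, from heterozygous females crossed to heterozygous mice. Every mother had eaten food with 5% sodium, so both genotypes shared the gestational salt load and no kidney without it was compared here. Total RNA of the 2 genotypes was hybridised against each other on 12 Agilent two-colour arrays. Arrays called null/WT had null RNA in Cy5, and arrays called WT/null had WT RNA in Cy5, with the other genotype in Cy3. Each orientation had replicates numbered 1, 2 and 3, given as biological in the series text. Averaging the 2 arrays that each replicate was run on left 6 values per probe. The labels do not say whether a sample held 1 embryo or a pool, which sex it was, or whether both orientations of a number used the same RNA. All 4 arrays of a number lay on 1 slide, so number and slide cannot be told apart, and p-values measure only the spread between these samples, which may be technical.

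The labels could not be checked by the deleted gene, since the Bdkrb2 probe was detected in null RNA on 0 arrays and in WT RNA on 1. Of the kidney markers, Six2, Wt1, Gdnf and Foxd1 were detected well above background in null and in WT RNA on 12 of 12 arrays, and Pax2 on 11 arrays in null and 12 in WT RNA. Ret was detected in null RNA on 0 arrays and in WT RNA on 1. Per array, between 40.4% and 57.8% of probes were well above background in the null channel and between 47.8% and 59.4% in the WT channel. One array stood apart, the first of WT/null replicate 3, with an SD of its log2 ratios of 0.381. The other arrays of number 3 came next, at 0.255 to 0.256, against 0.164 to 0.201 in numbers 1 and 2. Both arrays of WT/null replicate 3 had the lowest null detection, at 40.4% and 44.2%. They also correlated least as duplicates (r = 0.711, against 0.824 to 0.923 for the other replicates). Over all tested probes, 9 differed between null and WT (0.0392%, limma adjusted p under 0.05), 5 higher (0.0218%) and 4 lower in null (0.0174%). That fit took same-numbered replicates as independent. With the replicate number as a block, which pairs them, 4 differed (0.0174%). A difference between replicate numbers was called for 341 probes (1.48%, limma F test, adjusted p under 0.05). The latter count was 1547 when that one array was left out.

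Hunk encodes a serine/threonine kinase related to AMPK, the kinase that responds to low cellular energy, and has been studied mostly in the mammary gland. Tmem254a encodes a small membrane protein, and its neighbour Plac9a a small protein named after its expression in placenta. Rpl31 encodes a protein of the large ribosomal subunit. Timmdc1 encodes a protein of the inner mitochondrial membrane that takes part in assembling respiratory complex I.

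Hunk transcript was many fold higher in null than in WT kidneys in replicate numbers 1 and 2, and about equal in number 3. Its null over WT log2 ratio (probe A_51_P103237, chromosome 16) was 3.61 in WT/null replicate 1 and 3.42 in null/WT replicate 1. It was 2.80 in WT/null replicate 2 and 2.48 in null/WT replicate 2. In number 3 it was 0.14 with WT in Cy5 and -0.11 with null in Cy5. The 4 values of numbers 1 and 2 thus lay far above the 2 values of number 3, and exchanging the dyes moved a number's value by at most 0.31. Averaged over both orientations, null exceeded WT 11.5-fold in number 1 and 6.24-fold in number 2. In bulk kidney RNA, fewer cells of a type and less RNA per cell cannot be told apart.

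The difference was plain in the scanned Hunk spots before any normalization. On the null/WT arrays of number 1 the null channel read 4801 and 4676 intensity units and the WT channel 122 and 102, over local backgrounds of 66.5 and 72.5 in the null channel and 20 and 17.5 in the WT channel. On the null/WT arrays of number 3 the null channel read 2657 and 2774 and the WT channel 886.5 and 893.5. With the dyes exchanged, the WT channel read 338.5 and 322.5 in number 1, 489 and 469.5 in number 2, and 1928 and 1753.5 in number 3. The WT spot was thus the dim one in numbers 1 and 2 under both dyes.

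**Figure D1:**
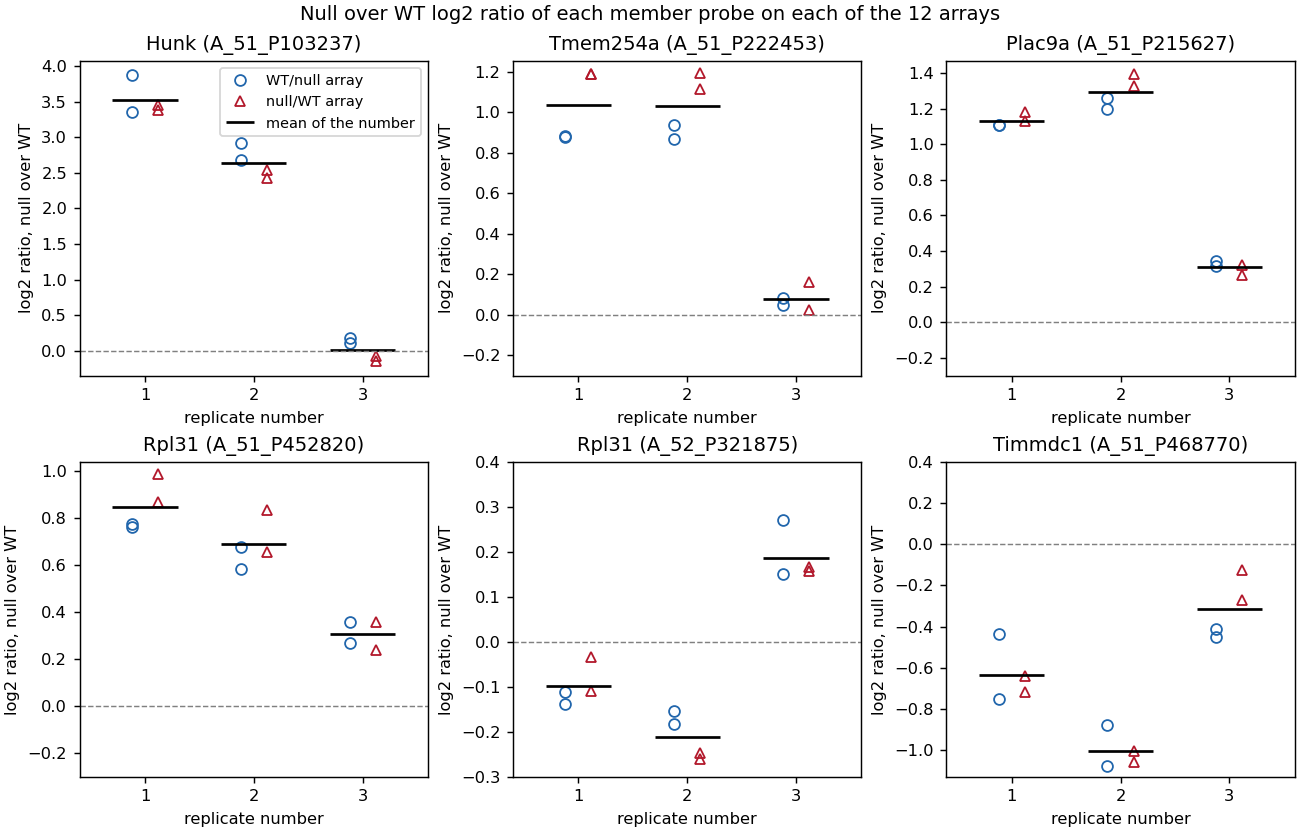
Null over WT log2 ratio (vertical axis) of each member probe on each of the 12 arrays, by replicate number (horizontal axis); circles are WT/null arrays, triangles null/WT arrays, and black bars the mean of a number. Hunk sits at means of 3.52 and 2.64 in numbers 1 and 2 and at 0.02 in number 3, and the vertical scale differs between panels.

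Channel levels, taken as log2 intensity after loess and normalization of average brightness between arrays, placed the Hunk gap mainly in the WT RNA. The WT level was 8.10 in number 1, 8.04 in number 2 and 10.58 in number 3. It was therefore 5.59-fold lower in number 1, and 5.83-fold lower in number 2, than in number 3. The null level was 11.62 in number 1, 10.68 in number 2 and 10.60 in number 3, so that number 1 exceeded number 3 by 2.03-fold. In number 3 both genotypes stood near the level that null RNA had in number 2. The WT level of Hunk spanned 2.54 log2 units over the 3 numbers and the null level 1.02, against medians over all tested probes of 0.23 and 0.22.

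**Figure D2:**
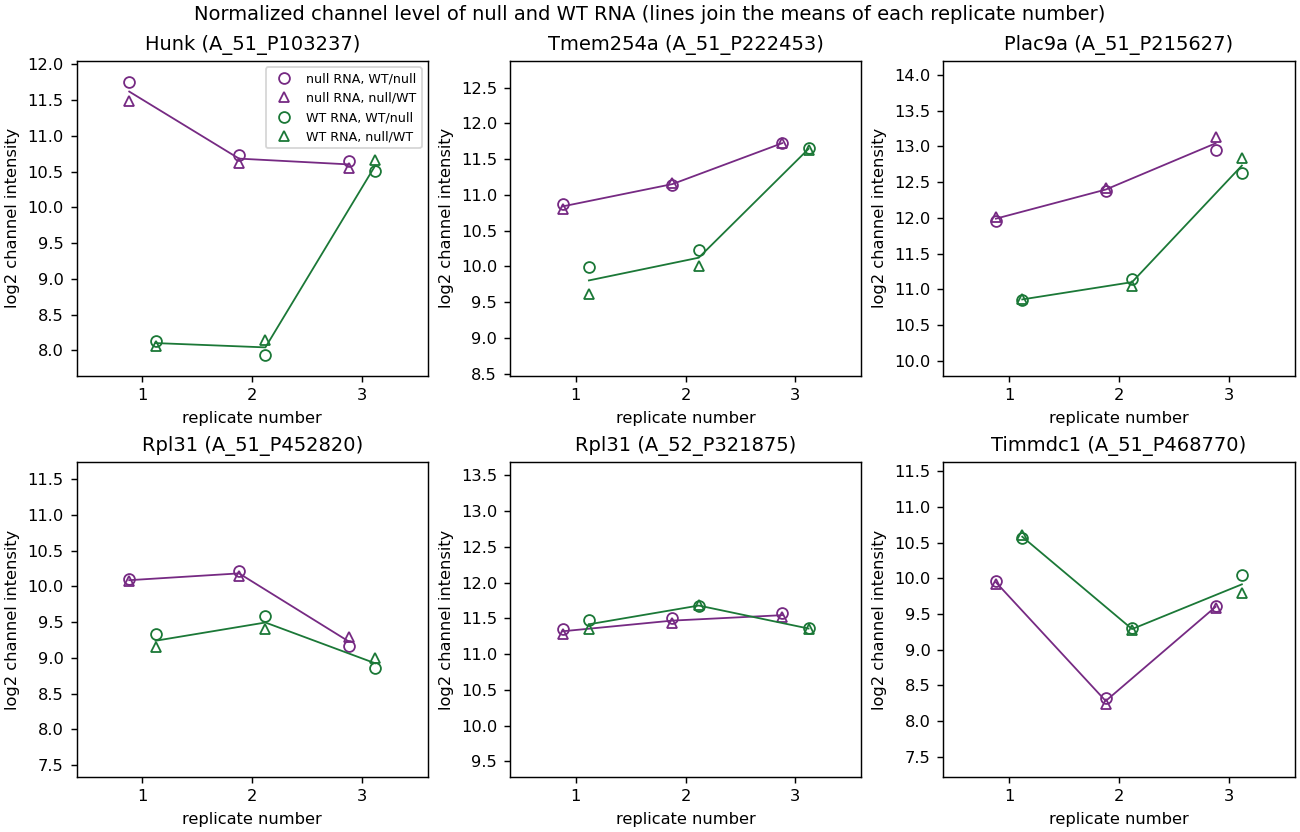
Normalized log2 channel intensity (vertical axis) of null RNA (purple) and WT RNA (green) for each member probe, by replicate number (horizontal axis); circles are WT/null and triangles null/WT replicates, each the mean of 2 arrays, and lines join the means of the numbers. WT Hunk lies at 8.10 and 8.04 in numbers 1 and 2 and at 10.58 in number 3, and both genotypes of Timmdc1 are lowest in number 2, at 8.28 and 9.29.

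Hunk ranked 7 of 22976 tested probes by the span of its 3 number means, at 3.50 log2 units. Plac9a ranked 150 (0.98), Tmem254a 162 (0.96), Timmdc1 388 (0.69), Rpl31 probe A_51_P452820 864 (0.54) and Rpl31 probe A_52_P321875 2143 (0.40). The median span of all tested probes was 0.175 and the 95th percentile 0.495. All members but the second Rpl31 probe were beyond that percentile, a description only, since the members were chosen for their spread. Past 1 log2 unit in at least 1 number were Hunk, Tmem254a, Plac9a and Timmdc1, where 0.44% of tested probes were.

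**Figure D3:**
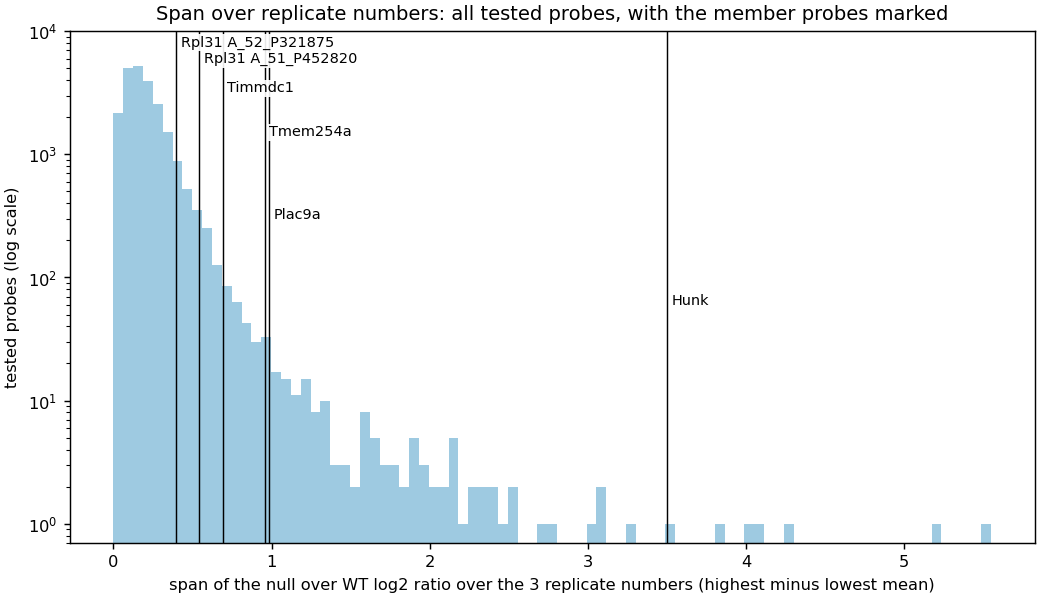
Number of tested probes (vertical axis, log scale) by the span of the null over WT log2 ratio over the 3 replicate numbers (horizontal axis, highest minus lowest number mean), with vertical lines at the 6 member probes. Hunk lies in the sparse right tail at 3.50, and the second Rpl31 probe, at 0.40, lies below the 95th percentile of 0.495.

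Tmem254a and Plac9a lie next to each other on chromosome 14 and showed one pattern. The gene table lists this pair 3 times in a row there, as Plac9a and Tmem254a, Gm9780 and Tmem254c, and Plac9b and Tmem254b, each followed by a Cphx and a Duxbl gene. Of the 3 Tmem254 genes and the 3 Plac9 genes, 1 of each had a probe on the array. Upstream sequences of these copies are shown so that their likeness can be read directly. They are the 250 bases before the annotated start in RefSeq, build GRCm38.p6, minus strand, 5′ to 3′. Capitals mark the longest run that all 3 copies share, which is 234 of 250 bases for the Tmem254 genes and 172 of 250 for the Plac9 genes. The windows are chr14:25927673-25927922 for Tmem254a, chr14:26207026-26207275 for Tmem254b, chr14:25902894-25903143 for Plac9a and chr14:26182352-26182601 for Plac9b.
Tmem254a: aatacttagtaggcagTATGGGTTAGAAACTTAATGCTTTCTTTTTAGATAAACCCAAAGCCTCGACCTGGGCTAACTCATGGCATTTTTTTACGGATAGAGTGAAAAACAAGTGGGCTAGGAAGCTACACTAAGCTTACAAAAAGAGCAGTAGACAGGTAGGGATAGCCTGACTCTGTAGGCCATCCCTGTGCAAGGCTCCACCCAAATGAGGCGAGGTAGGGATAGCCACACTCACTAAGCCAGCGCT
Tmem254b: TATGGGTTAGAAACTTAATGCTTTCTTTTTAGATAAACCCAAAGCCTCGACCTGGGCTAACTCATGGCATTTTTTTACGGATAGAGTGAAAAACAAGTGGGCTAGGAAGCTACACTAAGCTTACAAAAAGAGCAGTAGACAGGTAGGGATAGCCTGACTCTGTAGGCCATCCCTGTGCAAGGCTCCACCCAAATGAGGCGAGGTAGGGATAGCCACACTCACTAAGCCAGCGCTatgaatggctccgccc
Plac9a: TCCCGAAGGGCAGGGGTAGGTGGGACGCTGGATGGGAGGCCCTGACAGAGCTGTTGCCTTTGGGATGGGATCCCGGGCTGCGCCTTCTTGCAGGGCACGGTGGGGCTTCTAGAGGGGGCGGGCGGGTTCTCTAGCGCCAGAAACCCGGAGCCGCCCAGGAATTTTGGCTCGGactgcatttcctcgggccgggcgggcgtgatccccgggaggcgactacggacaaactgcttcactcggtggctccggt
Plac9b: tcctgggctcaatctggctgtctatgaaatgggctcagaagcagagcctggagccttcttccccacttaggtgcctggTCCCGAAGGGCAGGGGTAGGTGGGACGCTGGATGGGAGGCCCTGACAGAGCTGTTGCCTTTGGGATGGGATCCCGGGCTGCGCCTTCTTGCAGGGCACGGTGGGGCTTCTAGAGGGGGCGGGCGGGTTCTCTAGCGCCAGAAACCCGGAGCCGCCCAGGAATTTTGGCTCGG
The window of Tmem254c is identical to that of Tmem254a, and the window of Gm9780 to that of Plac9b. Within each family the runs in capitals sit at different distances from the annotated start, and the lower-case bases lie outside the other window's reach. Probe sequences were not used here, so which of the copies each probe detects was not tested, and both signals are reported as uncertain between copies.

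Tmem254a (probe A_51_P222453) was higher in null RNA in all 6 replicates, by about 2-fold in numbers 1 and 2. Its log2 ratio was 0.88 in WT/null replicate 1 and 1.19 in null/WT replicate 1. The values of number 2 were 0.90 and 1.16, and those of number 3 were 0.06 and 0.09, in the same order. Numbers 1 and 2 overlapped each other and lay above number 3 in both orientations. The fold, averaged over orientations, was 2.05 in number 1, 2.04 in number 2 and 1.06 in number 3.

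Plac9a (probe A_51_P215627) behaved alike. Its ratio was 1.11 in WT/null replicate 1 and 1.15 in null/WT replicate 1, and 1.23 and 1.36 in number 2. In number 3 it was 0.33 and 0.29, still above 0 in both orientations. Null exceeded WT 2.19-fold in number 1, 2.45-fold in number 2 and 1.24-fold in number 3. Duplicate arrays of a replicate differed by at most 0.07, the closest agreement of the 6 member probes.

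For both genes the level was lowest in number 1 and highest in number 3 in either genotype, with the wider gap in WT RNA. Tmem254a stood at 10.84, 11.15 and 11.72 in null RNA of numbers 1, 2 and 3, and at 9.80, 10.12 and 11.64 in WT RNA. Plac9a stood at 11.99, 12.40 and 13.04 in null RNA and at 10.86, 11.10 and 12.73 in WT RNA. WT RNA of number 1 was 3.58-fold below that of number 3 for Tmem254a and 3.66-fold for Plac9a, against 1.85-fold and 2.08-fold in null RNA. As for Hunk, the wider movement was in the WT channel, where Plac9a ranked 47 and Tmem254a 53 of all tested probes by span and Hunk ranked 21.

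The Rpl31 probes disagreed with each other. By probe A_51_P452820, Rpl31 was higher in null RNA in all 6 replicates: 0.77 and 0.93 in number 1 (WT/null, then null/WT), 0.63 and 0.75 in number 2, and 0.31 and 0.30 in number 3. Its folds were 1.80, 1.61 and 1.24, with number 3 below the other 4 values. By probe A_52_P321875 the ratios were -0.12 and -0.07 in number 1, -0.17 and -0.25 in number 2, and 0.21 and 0.16 in number 3. The second probe thus lay below 0 in numbers 1 and 2, where the first lay highest, and above 0 in number 3. No single direction can be given for Rpl31 in numbers 1 and 2.

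The levels behind the Rpl31 ratios also differed between probes. Probe A_51_P452820 read 10.09, 10.18 and 9.23 in null RNA of numbers 1, 2 and 3 and 9.24, 9.49 and 8.92 in WT RNA, lowest in number 3 for both genotypes. Probe A_52_P321875 read 11.32, 11.47 and 11.54 in null RNA and 11.42, 11.68 and 11.36 in WT RNA, within 0.32 log2 units in either genotype. The gene table holds 24 further Rpl31 genes, 23 of them annotated as pseudogenes, and 0 have a probe here. Whether either probe detects them was not tested.

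Timmdc1 (probe A_51_P468770, chromosome 16) was the only member lower in null RNA in all 6 replicates. Its log2 ratio was -0.59 in WT/null replicate 1 and -0.68 in null/WT replicate 1. It was -0.98 and -1.03 in number 2, the lowest pair, and -0.43 and -0.20 in number 3. WT exceeded null 1.56-fold in number 1, 2.01-fold in number 2 and 1.24-fold in number 3. The 3 pairs did not overlap. Higher in null in 6 of 6 replicates were 1.5% of tested probes, and lower in 6 of 6 were 1.42%. Tmem254a, Plac9a and the first Rpl31 probe belong to the former and Timmdc1 to the latter, by the contrast that chose them.

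Hunk moved more in WT RNA, with spans of 2.54 log2 units in WT and 1.02 in null RNA. Timmdc1 instead spanned 1.66 in null and 1.29 in WT RNA, and was lowest in number 2 in both. Null RNA read 9.94, 8.28 and 9.60 in numbers 1, 2 and 3, and WT RNA 10.58, 9.29 and 9.91. Number 1 exceeded number 2 by 3.16-fold in null RNA and by 2.45-fold in WT RNA. The scanned null spots of number 2 were correspondingly dim, at 487.5 and 493 intensity units in Cy5 against 1582.5 and 1649 in number 1 and 1313 and 1378 in number 3. The null level of Timmdc1 ranked 67 of all tested probes by its span over numbers.

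Genes beside the members on the chromosome, which the choice of members did not use, were tested for a difference between replicate numbers. The 5 nearest tested genes on each side made 40 distinct genes. Of these, 3 differed between numbers (limma F test, adjusted p under 0.05), where 1.48% of all tested probes did. The share was 1.93% on chromosome 1, 2.09% on chromosome 14 and 2.34% on chromosome 16. None of the 40 differed between null and WT over all replicates by limma with or without the replicate block. Without the block, and so without allowing for pairs of same-numbered replicates, 7 had an unadjusted p under 0.05, where 7.01% of tested probes did.

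The genes closest to Hunk had far smaller ratios and did not pass the limma F test. Scaf4, the next gene on one side, stood at 0.16, -0.01 and -0.08 in numbers 1, 2 and 3 (limma F adjusted p = 0.361). Sod1, the cytosolic superoxide dismutase, stood at 0.02, -0.02 and 0.06 (adjusted p = 0.904). Tiam1, an activator of the GTPase Rac, stood at 0.33, 0.12 and -0.03 (adjusted p = 0.148), in the same order over the numbers as Hunk. It passed in 4 of 16 alternative settings: with median centring, without the array that stood apart, and without either orientation of replicate 3. Cldn8, a tight junction claudin of the distal nephron that lies 77 genes away, differed between numbers (limma F adjusted p = 0.000882). Its ratio was -2.96 in number 1, opposite in sign to Hunk, and -0.07 and 0.12 in numbers 2 and 3. That call rested on number 1, without which its adjusted p was 0.435. All these genes lie on the same side of Hunk. On the other side the nearest tested gene was Mis18a, 10 genes away. It stood at 0.06, -0.02 and -0.05 (limma F adjusted p = 0.764).

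Around Timmdc1, 2 of 10 neighbours differed between numbers. Poglut1, which adds O-linked glucose to Notch, stood at 0.59, 0.40 and -0.06 in numbers 1, 2 and 3 (limma F adjusted p = 0.0458). Arhgap31, a GTPase-activating protein for Cdc42 and Rac, stood at 1.35, 0.77 and 0.31 (limma F adjusted p = 0.0380). Both lay on the null side in number 1, where Timmdc1 lay on the WT side. Of 16 alternative settings, Poglut1 passed in 5 and Arhgap31 in 8, against 15 for Cldn8. Tmem39a, between Poglut1 and Arhgap31, stood at -0.01, -0.07 and -0.06 (adjusted p = 0.933).

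**Figure D4:**
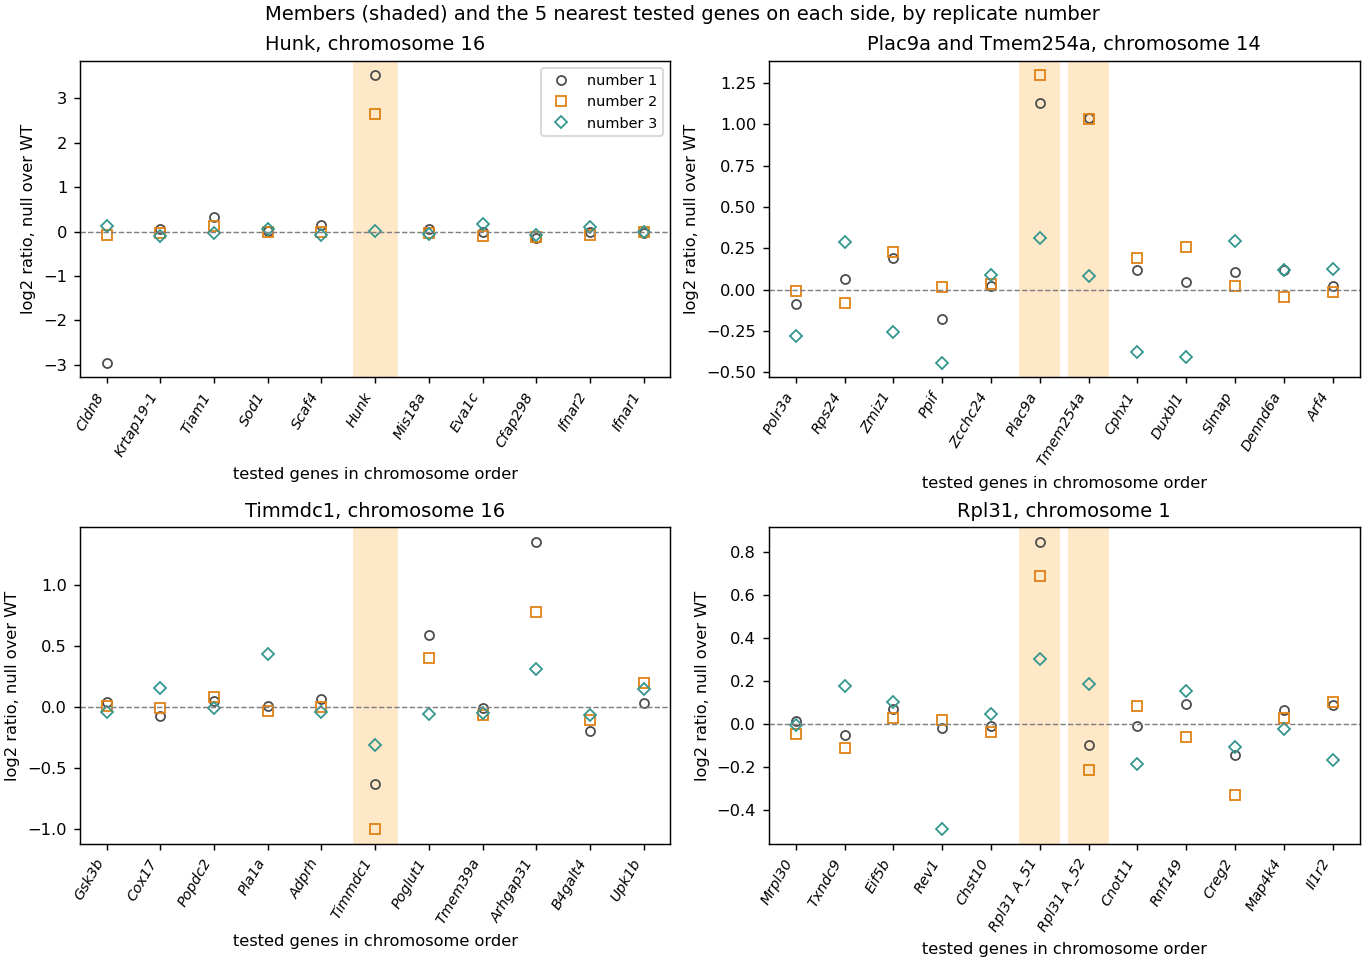
Mean null over WT log2 ratio (vertical axis) in replicate numbers 1 (circles), 2 (squares) and 3 (diamonds) for each member (shaded) and the 5 nearest tested genes on each side, in chromosome order (horizontal axis). The genes next to Hunk lie near 0, while Cldn8 reaches -2.96 in number 1, and the vertical scale differs between panels.

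Tmem254a and Plac9a share their 10 neighbours, of which 0 passed the limma F test and 5 had an unadjusted p under 0.05, where 18.9% of tested probes did. Cphx1 and Duxbl1, the homeobox genes of the repeated block, stood at 0.12, 0.19 and -0.38, and at 0.04, 0.26 and -0.41 (limma F adjusted p = 0.220 and 0.0963). Zcchc24, on the other side, stood at 0.02, 0.04 and 0.09 (adjusted p = 0.806). Of the 10 neighbours of Rpl31, 0 passed and 3 had an unadjusted p under 0.05. The widest of these was Rev1, a translesion DNA polymerase, at -0.02, 0.02 and -0.49 (limma F adjusted p = 0.261).

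The families and pathways of the members were examined in the same way. Of 20 tested AMPK-related kinases and LKB1 complex genes other than Hunk, 0 differed between replicate numbers and 7 had an unadjusted p under 0.05 (limma F test), where 1.48% and 18.9% of all tested probes did. Their median ratio was 0.02, 0.04 and -0.03 in numbers 1, 2 and 3, against 0.01, -0.01 and -0.03 for all tested probes. The extremes in number 3 were Prkab1, a regulatory subunit of AMPK, at -0.34 (limma F adjusted p = 0.0922), and Prkaa2, a catalytic subunit, at 0.36 (limma F adjusted p = 0.192). None of these kinases came near the 3.52 of Hunk in number 1, where the highest stood at 0.23.

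Among the large-subunit ribosomal proteins, 0 of 46 tested genes besides Rpl31 passed the limma F test and 9 had an unadjusted p under 0.05, near the 18.9% of all tested probes. Their median was -0.02, -0.03 and 0.11 in numbers 1, 2 and 3, with 34 of 46 higher in null on average. In number 1 they ranged from -0.18 to 0.15, so that the 0.85 of Rpl31 probe A_51_P452820 lay outside the range and the -0.10 of probe A_52_P321875 inside it. The smallest p-values were those of Rpl35a, at 0.07, -0.07 and 0.32, and Rpl3, at -0.14, 0.28 and -0.31 (limma F adjusted p = 0.123 and 0.127). Rpl41 stood at -0.04, -0.03 and 0.39, and Rpl32 at 0.00, -0.11 and 0.29 (limma F adjusted p = 0.150 and 0.155). Of these genes Rpl3 alone was lowest in number 3, where the others were highest.

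Of the complex I genes, 0 of 14 tested assembly factors and 0 of 35 tested subunits passed the limma F test, with 2 of each at an unadjusted p under 0.05, against 18.9% of all tested probes. The assembly factors had medians of 0.00, -0.07 and 0.06 and the subunits -0.02, -0.02 and 0.07 in numbers 1, 2 and 3. In number 2 the assembly factors ranged from -0.22 to 0.06, where Timmdc1 stood at -1.01. Nubpl, an iron-sulfur carrier for complex I, stood at -0.26, 0.01 and -0.10, and Tmem70 at 0.00, -0.13 and 0.20 (limma F adjusted p = 0.255 and 0.189). The mitochondrial import translocases, a list grouped by function, had 0 of 28 genes past the threshold and 2 with an unadjusted p under 0.05 (limma F test). No gene of these 5 lists passed the genotype test without the replicate block. In that test 1, 2, 1, 3 and 1 of them, in the order given, had an unadjusted p under 0.05, where 7.01% of all tested probes did. These counts of 0 depended on the setting. With the array that stood apart left out, the limma F test called 1 kinase (Prkab1), 1 ribosomal protein (Rpl3) and 0 genes of the other 3 lists. Without null/WT replicate 3 it called 7 of 20 kinases, 20 of 46 ribosomal proteins, 3 of 14 assembly factors, 6 of 35 subunits and 5 of 28 translocases, where 9939 probes passed in all. Without WT/null replicate 3 it called 4, 4, 1, 1 and 3 of them, where 4319 passed. With median centring in place of loess it called 12, 44, 13, 34 and 26, where 11446 passed.

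Genes with the pattern most like each member were sought among 816 tested probes with a symbol whose number means spanned at least 0.5 log2 units. Likeness was Pearson's r over the 6 replicate values, which form 3 pairs sharing a slide, and is a description. Nearest to Hunk were both probes of Col2a1, the collagen of cartilage (r = 0.999 and 0.994), which stood at 0.30, 0.07 and -0.53, and at 0.34, 0.09 and -0.55. Dync1h1, the dynein heavy chain, followed (r = 0.992). Pop4, a subunit of RNase P, was near Hunk by one probe (r = 0.985) at 0.96, 0.88 and 0.01, and nearest to Tmem254a by its other probe (r = 0.993) at 0.51, 0.46 and -0.02. Col2a1 followed Hunk in its order over the numbers, with a much smaller span.

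Plac9a was among the 5 probes nearest to Tmem254a (r = 0.971). Homer2, a synaptic scaffold protein, was nearest to Plac9a (r = 0.994), at 0.01, 0.09 and -0.50. Ttc3, a ubiquitin ligase, was nearest to Rpl31 probe A_51_P452820 (r = 0.980), and at 0.07, -0.07 and -0.91 its low value lay in number 3. Rpl31 probe A_52_P321875 was instead nearest to Ccn2, a matricellular growth factor (r = 0.990), and to Myh7, the slow muscle myosin heavy chain (r = 0.989), which stood at 0.42, 0.06 and 1.63. Timmdc1 was nearest to Scin, an actin-severing protein (r = 0.974), at 0.14, -0.11 and 0.50.

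Some other transcripts moved with the replicate number too. Skeletal muscle markers had a median null over WT ratio of 0.14 in number 1, 0.41 in number 2 and 2.16 in number 3, and 4 of 7 tested differed between numbers (limma F test), where 1.48% of all tested probes did. In number 3 they ranged from -0.05 to 2.92, after 0.10 to 0.75 in number 2 and -0.12 to 0.24 in number 1. The erythroid list had medians of -0.21, -0.04 and 0.40 with 1 of 5 passing, and the liver list 0.00, 0.10 and 0.27 with 1 of 4 passing. In the nephron progenitor list 0 of 6 passed, and 0 of 4 in each of the ureteric bud, podocyte and stroma lists. Their medians in number 3 were -0.21, -0.18, 0.07 and 0.21 in that order. In number 2 the medians were -0.07, 0.07, 0.11 and 0.09, and in number 1 -0.001, -0.007, -0.02 and 0.22. The nephron progenitor genes ranged from -0.31 to -0.12 in number 3. With the array that stood apart left out, 5 muscle, 4 erythroid and 1 liver gene passed, where 1547 of 22966 tested probes did. So did 1 nephron progenitor, 1 ureteric bud, 1 podocyte and 0 stroma genes. Number 3, where Hunk, Tmem254a, Plac9a, Timmdc1 and Rpl31 probe A_51_P452820 lay closest to 0, was thus the number with the highest null over WT ratio of muscle markers. Their part in the members' values was not tested.

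Transcripts of the sex chromosomes followed another split. Ddx3y, Eif2s3y and Kdm5d, all Y-linked, were detected well above background in WT RNA on 4 of 4 arrays of number 2 and of number 3, on 0 arrays of number 1, and in null RNA on 0 of 12 arrays. Uty, also Y-linked, was detected in neither genotype on any array by its probes. Xist was detected in null RNA on all 12 arrays, and in WT RNA on the 4 arrays of number 1 alone. Its ratio was 0.20, 2.42 and 1.89 in numbers 1, 2 and 3, and that of Ddx3y was -0.01, -3.12 and -2.52. The WT RNA of number 1 thus differed from that of numbers 2 and 3 in these genes, whereas Hunk was low in the WT RNA of numbers 1 and 2. In numbers 2 and 3 null RNA held Xist without these Y-linked transcripts, and WT RNA the reverse. Genotype and sex therefore cannot be told apart in those numbers. In number 1 RNA of both genotypes held Xist alone. Without number 1 all 4 of these genes passed the genotype test, where 12 probes passed in all. The part of sex in the members' values was not tested.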

How the data were processed

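The starting values were the deposited median spot and background intensity of both dyes, which the authors' scanner software had not yet corrected or normalized, per the file headers. Per the file headers, Agilent Feature Extraction 10.5.1.1 also gave log10 ratios of Cy5 over Cy3. Version 6.1 is named in the submitters' processing notes. The authors' value table held log10 ratios running null over WT, as its columns correlated with the turned scanner ratios at 0.998 to 0.999 with slopes of 1.00, which settled scale and direction. Its column medians, in the order array 1 and array 2, were -0.00257 and -0.0044 (WT/null 1), 0.000114 and -0.00174 (null/WT 1), -0.000946 and -0.000769 (WT/null 2), -0.00332 and -0.00315 (null/WT 2), -0.0218 and -0.01 (WT/null 3), and 0.00645 and 0.00145 (null/WT 3). What centring it had stays unknown, and 21.2% to 38.1% of entries per column were blank.

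Background was corrected with normexp (offset 50), ratios were normalized by loess with control and outlier spots at weight 0, then those spots were left out (101 to 262 outlier spots per array), and spots of a probe and the 2 arrays of a replicate were averaged. A probe was tested if it had a value in all 6 replicates and, in null or in WT RNA, a signal well above background on 6 or more arrays. Symbols came from probe accessions matched to a RefSeq gene table (GRCm38.p6), for 25097 of 41174 probes and 17777 of the tested ones. The array header names mm9, so genes are placed by chromosome and order alone. The genotype fit (limma 3.58.1, R 4.3.3) had a dye term. The F test compared the 3 replicate numbers, with the gap between orientations of a number as its error (2 residual degrees of freedom). Benjamini-Hochberg adjustment ran over all tested probes. Both tests were tried on simulated data. Apart from the added changes and a dye shift, its 6 values per probe were drawn independently. Deviations shared by same-numbered replicates were thus not covered. The small number of replicates, 6 in 3 same-numbered pairs, limits the precision.

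Genes named are the members, the 5 nearest tested genes on each side, the 5 most alike probes, up to 4 genes per list with the smallest F test p, and sex-linked genes. For neighbours and lists the brightest tested probe of a gene was used. The members and lists were chosen with earlier results of these data known. Same-numbered replicates deviated together from their orientation means (r of 0.587, 0.517 and 0.413 for numbers 1, 2 and 3), and they share a slide. The number therefore pairs them. The main genotype fit left this pairing out and took the replicates as independent, so its calls and p-values do not allow for the pairs. Of the genotype fits, the one with a block on the number does. A block on the number was an alternative, beside other background corrections, normalizations, starting values, filters and left-out arrays.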

Additional observations from a re-analysis of the deposited data

Results flagged for a closer look

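The second Rpl31 probe, A_52_P321875, changed sign between replicate numbers: its mean null over WT log2 ratio was -0.10 in number 1 and -0.21 in number 2, where every array lay below 0, and 0.19 in number 3, where every array lay above 0. With median centring in place of loess, number 1 lay at 0.36, on the same side as number 3. That difference was not tested, since the gene was chosen on this contrast.

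Cldn8, Arhgap31 and Poglut1, neighbours of members, differed between replicate numbers by the limma F test, with adjusted p = 0.000882, 0.0380 and 0.0458 in that order. Among the marker lists, that test passed for the skeletal muscle genes Acta1 and Myh3 (adjusted p = 0.000932 each), Tnnc2 (adjusted p = 0.000984) and Myh8 (adjusted p = 0.00303). The limma F adjusted p was 0.00227 for Afp, the fetal liver protein, and 0.0462 for Alas2, a heme synthesis enzyme of red cells. Alas2 passed in 5 of 16 alternative settings, with an adjusted p of up to 0.382, and Afp in 13. The sex-linked genes passed it as well, with limma F adjusted p = 0.00216 for Kdm5d, 0.00413 for Eif2s3y, 0.00479 for Ddx3y and 0.00879 for Xist. Of the alternative settings that tested them, Kdm5d and Eif2s3y each passed in 9 of 14, Ddx3y in 10 of 13 and Xist in 12 of 16.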

How the results depend on the processing

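The members' values kept their direction under the alternatives run, except where stated. Over all settings Hunk ranged from 3.42 to 4.13 in number 1, from 2.48 to 2.95 in number 2 and from -0.11 to 0.25 in number 3. Timmdc1 ranged from -0.74 to -0.21, from -1.20 to -0.98 and from -0.43 to -0.10 in numbers 1, 2 and 3. The gaps between numbers were less stable. With median centring, Rpl31 probe A_51_P452820 stood at 0.59 in number 2 and 0.52 in number 3, against 0.69 and 0.30 with loess. Median centring in place of loess moved 14 of 18 member values beyond the spread between orientations, and turned Rpl31 probe A_52_P321875 in number 1 to 0.36. The cause was not tested. Leaving out the array that stood apart, the first of WT/null replicate 3, moved 0 of 18.

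The count of probes differing between null and WT was 9, 4 with the replicate block (3 pairs), 15 without that array, and 148 with the 12 arrays as values and duplicate arrays as a random block. It was 3 without replicate number 2 and 62 without number 3, and 5 (without null/WT replicate 2) to 11 when 1 replicate of 1 orientation was left out. No neighbour or list gene passed the main genotype test, so the replicate block had no call of theirs to remove. With the block 0 of the 40 neighbours passed.

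The count differing between replicate numbers was far less stable. It was 341, against 15 with plain background subtraction, 11446 with median centring, 156 from the scanner's log ratio, 132 from the authors' table, 170 without the filter, 727 with all 12 arrays above background and 1547 without that array. It was 34 without number 1, 105 without number 2 and 1377 without number 3, and ranged from 38 to 9939 when 1 replicate of 1 orientation was left out (9939 without null/WT replicate 3, 4319 without WT/null replicate 3). The cause was not tested. Of the 40 neighbours, 3 passed, 1 with plain subtraction, 25 with median centring, 6 without that array, 16 without null/WT replicate 3, 11 without WT/null replicate 3 and 0 without number 1. It was 1 without any one replicate of numbers 1 and 2. Without number 3, 2 neighbours passed the genotype test (Arhgap31 and Poglut1).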
